A study of Mus musculus with 6 samples.

Results

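The unfolded protein response and the integrated stress response were examined in mouse retina through 10 genes, *Atf4*, *Ddit3*, *Hspa5*, *Xbp1*, *Trib3*, *Chac1*, *Asns*, *Sesn2*, *Eif2ak3* and *Atf6*, which were chosen by symbol, for their known place in these pathways, from the 31169 genes of the deposited count table. Each symbol matched 1 gene, and all 10 genes passed the filter on low counts, as did 17707 genes in all. Sequenced RNA of whole retina is compared here between 3 samples from saline-injected and 3 from microbead-injected C57BL/6 mice, whereas a figure legend of the study gives another number of retinas. By the sample records, both groups received 1 μl into the anterior chamber of the eye at 1 month of age, whereas the methods of the study give another volume. The injection was either of saline or of microbeads 15 μm in diameter, and retina was collected 4 weeks later, at 2 months of age. Beads obstruct the outflow of aqueous humor and raise intraocular pressure, and the comparison asks which retinal transcripts differ between microbead and saline retina. Retina was taken whole, so that every value is an average over all of its cell types, and in such bulk samples fewer cells of a type and less RNA per cell cannot be told apart.

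Unfolded protein in the endoplasmic reticulum (ER) is sensed by 3 membrane proteins, PERK (encoded by *Eif2ak3*), ATF6 and IRE1 (encoded by *Ern1*). PERK and the other kinases of the integrated stress response phosphorylate the translation initiation factor eIF2, which lowers protein synthesis in general but favors translation of the transcription factor ATF4. ATF4 and its partner CHOP (encoded by *Ddit3*) then drive genes of amino acid supply, redox balance and cell death, whereas ATF6 and the IRE1-spliced form of XBP1 drive ER chaperones and the machinery that degrades misfolded protein. In retinal ganglion cells (RGCs), PERK and CHOP signaling is known for its activation after axon injury. Much of this control acts on translation, on splicing or on cleavage of the sensor proteins, and gene counts measure none of these.

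The saline libraries held 36085737, 46481382 and 37546884 counts, and the microbead libraries 19834366, 13574949 and 15647739. Levels are given as counts per 1000000 (CPM) of the library size after scaling by edgeR's TMM method, for replicates 1, 2 and 3 in that order. Mitochondrial genes took 3.19%, 3.30% and 3.57% of counts in saline retina and 10.6%, 8.90% and 9.97% in microbead retina. The library names of the saline samples formed one series and those of the microbead samples a separate one, whereas the sample titles were numbered as a single series over both groups. The labels do not say how the libraries were batched, so that a difference in preparation or sequencing cannot be told apart from the injection. The sample records do not say that the samples of a group came from separate animals, so that the p-values measure only the spread between these samples. Saline replicate 1 stood apart from the other saline libraries by low RGC markers and high reactive glia markers, and saline replicate 3 by lens transcripts, and fold changes of named genes that rest on either library are also given without it.

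None of the 10 genes differed significantly between saline and microbead retina. With edgeR's quasi-likelihood test, 0 of 10 had an adjusted p under 0.05, as compared to 12.8% of all 17707 genes tested, of which 1143 (6.46% of those tested) were higher and 1118 (6.31%) lower in microbead retina. At an unadjusted p under 0.05, edgeR found 1 of the 10 (*Atf6*), as compared to 31.4% of all genes tested. DESeq2 called 0 of 10, with 3 at an unadjusted p under 0.05, and limma-voom called 0 of 10, with 1 at an unadjusted p under 0.05. The 3 microbead libraries lay wholly below the 3 saline libraries for 3 of the 10 genes (*Atf6*, *Eif2ak3* and *Sesn2*) and wholly above them for 0. Among all genes tested, the groups did not overlap in either direction for 37.8%, and the microbead libraries were the lower ones for 18.9%. The log2 fold changes (microbead over saline) of the 10 genes ran from -0.55 to 0.53 with a median of -0.23, as compared to a median of -0.03 over all genes tested. Their median was -0.07 without saline replicate 1 and -0.13 without microbead replicate 2, as compared to -0.01 and -0.04 over all genes tested. Of the 10, 8 were below 0, but only 7 were with upper-quartile scaling or once the 100 most abundant genes were dropped from the library size, 5 without saline replicate 1 and 6 without microbead replicate 2.

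**Figure D1:**
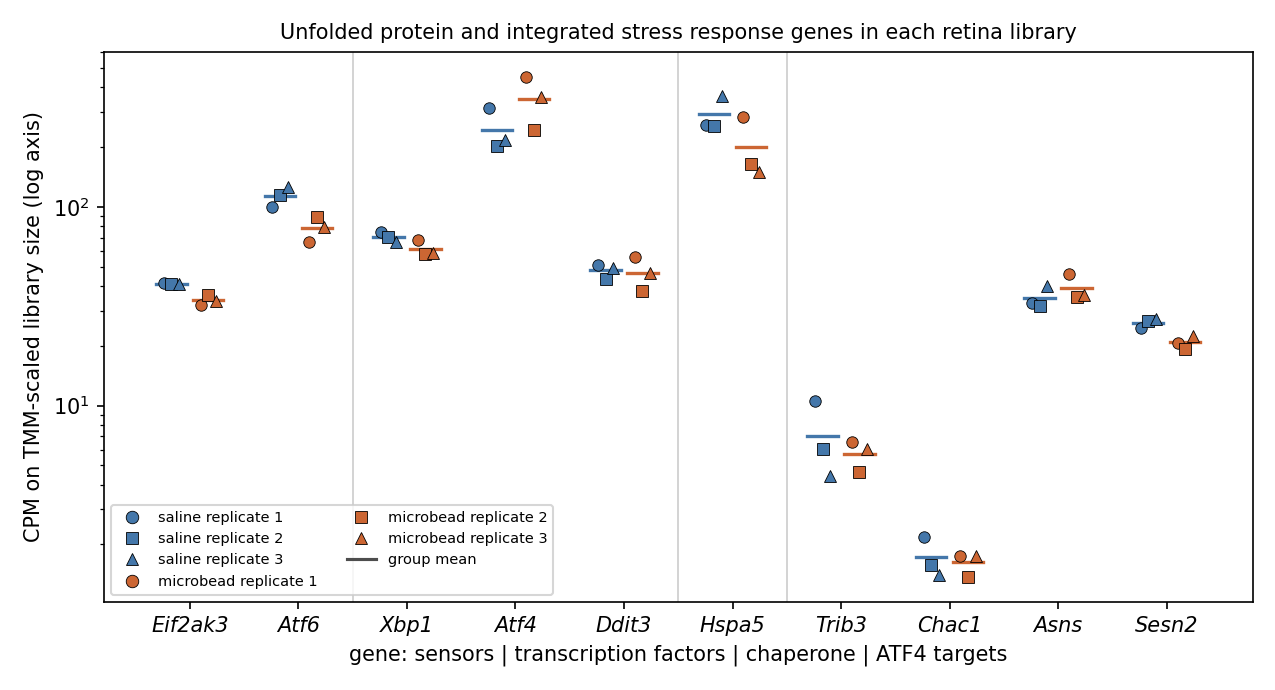
CPM on TMM-scaled library sizes (log axis) of the 10 genes in each of the 3 saline (blue) and 3 microbead (orange) libraries, with symbols for the replicates and short lines at the group means, ordered as sensors, transcription factors, chaperone and ATF4 targets. The microbead points lie wholly below the saline points for *Eif2ak3*, *Atf6* and *Sesn2*, and the groups overlap for the other 7 genes.

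Levels differed between the genes far more than between the groups. Per kilobase of merged exon, and averaged over the 6 libraries, *Atf4* was highest at 126 CPM, and *Hspa5* followed at 58.3 CPM. *Ddit3* (27.6 CPM per kilobase), *Xbp1* (20.4), *Asns* (13.5), *Atf6* (10.4), *Sesn2* (6.75) and *Eif2ak3* (6.21) came next, and *Trib3* (2.998) and *Chac1* (1.02) were lowest. On this scale, the ranges over the 6 libraries of neighbors in the order overlapped for *Atf4* and *Hspa5*, for *Ddit3* and *Xbp1*, and from *Asns* through *Atf6* and *Sesn2* to *Eif2ak3*. They did not overlap between *Hspa5* and *Ddit3*, *Xbp1* and *Asns*, *Eif2ak3* and *Trib3*, or *Trib3* and *Chac1*.

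Both sensors among the 10 genes were at lower levels in every microbead library than in any saline library. *Atf6* (ENSMUSG00000026663.6, chr1:170704674-170867771, minus strand, GRCm38) encodes the ER membrane protein whose cleaved part enters the nucleus as a transcription factor. It was at 100.03, 114.6 and 126.8 CPM in saline retina and 66.6, 89.5 and 79.3 CPM in microbead retina. The highest microbead library thus stood below the lowest saline library, and the 3 libraries of a group differed among themselves by up to 1.34-fold. *Atf6* had a log2 fold change of -0.54 (standard error, SE, 0.18, 95% confidence interval -0.94 to -0.13) with an unadjusted p of 0.0144, and its adjusted p in edgeR's quasi-likelihood test was 0.0767, the smallest of the 10. Across the alternative settings and the fits with 1 library left out, its log2 fold change stayed between -0.62 and -0.44, and the adjusted p from edgeR, DESeq2 or limma-voom between 0.0543 and 0.212. *Eif2ak3* (ENSMUSG00000031668.14, chr6:70844515-70905245, plus strand) was at 41.2, 41.0 and 40.9 CPM in saline retina and 31.96, 36.03 and 33.59 CPM in microbead retina. The saline libraries were nearly identical, with a standard deviation of 0.156 CPM as compared to 2.05 CPM in microbead retina. Its log2 fold change was -0.28 (SE 0.16, interval -0.63 to 0.07, edgeR quasi-likelihood test, adjusted p = 0.257). The test takes its estimate of spread from genes across the table as well as from these values. Of the exon bases of *Eif2ak3*, 8.05% lie opposite another annotated gene, whose reads cannot be told apart from its own if strand was not used in counting.

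*Ern1*, the gene of the third sensor, was at 45.2, 38.0 and 19.8 CPM in saline retina and 32.5, 47.5 and 40.5 CPM in microbead retina. The groups overlapped, and saline replicate 3 was the lowest of all 6 libraries. The log2 fold change of *Ern1* was 0.23 (SE 0.29, edgeR quasi-likelihood test, adjusted p = 0.636), and it was -0.05 without saline replicate 3.

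None of the 3 transcription factor genes passed edgeR's quasi-likelihood test, and *Atf4* had the largest fold change of them in value. *Atf4* (ENSMUSG00000042406.7, chr15:80255184-80257541, plus strand) was at 313, 202 and 217 CPM in saline retina and 454, 245 and 356 CPM in microbead retina. Microbead replicates 1 and 3 were above every saline library, whereas microbead replicate 2 lay between saline replicates 1 and 3. The highest microbead library was 1.85-fold above the lowest, and the highest saline library 1.55-fold above the lowest. Its log2 fold change of 0.53 (SE 0.26, interval -0.05 to 1.11) was the largest rise in value among the 10 genes, with an adjusted p of 0.195 in edgeR's quasi-likelihood test. The interval includes 0, so that a difference in either direction was not shown. The size of the rise depended on single libraries, as the log2 fold change was 0.75 without saline replicate 1 (edgeR quasi-likelihood test, adjusted p = 0.0826), 0.75 without microbead replicate 2 (0.105) and 0.30 without microbead replicate 1 (0.468).

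*Xbp1* (ENSMUSG00000020484.18, chr11:5520659-5525893, plus strand) encodes the factor made active by IRE1 splicing, and the counts do not separate its spliced and unspliced forms. *Xbp1* was at 74.5, 70.4 and 66.7 CPM in saline retina and 68.6, 58.0 and 58.7 CPM in microbead retina. Only microbead replicate 1 reached the range of the saline libraries. The log2 fold change of *Xbp1* was -0.19 (SE 0.16, interval -0.55 to 0.17, edgeR quasi-likelihood test, adjusted p = 0.447). *Ddit3* (ENSMUSG00000025408.15, chr10:127290774-127296288, plus strand) was at 51.2, 43.6 and 49.0 CPM in saline retina and 56.3, 37.7 and 46.3 CPM in microbead retina. The microbead libraries held both the highest and the lowest value. The log2 fold change of *Ddit3* was -0.03 (SE 0.19, interval -0.46 to 0.39, edgeR quasi-likelihood test, adjusted p = 0.923). Its sign was not fixed, as it was 0.01 with upper-quartile scaling, 0.03 with library sizes without the 100 most abundant genes, 0.01 without saline replicate 1 and 0.12 without microbead replicate 2. Of the exon bases of *Ddit3*, 4.73% lie opposite other annotated genes, and 6.13% are shared on the same strand with another annotated gene of the same symbol.

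*Hspa5* (ENSMUSG00000026864.13, chr2:34771970-34777547, plus strand) encodes BiP, the main ER chaperone, which binds the sensors in the absence of stress and is the classical target of ATF6. *Hspa5* was at 259, 256 and 363 CPM in saline retina and 285, 165 and 149 CPM in microbead retina. Microbead replicates 2 and 3 were below every saline library, whereas microbead replicate 1 was above saline replicates 1 and 2. Its log2 fold change was -0.55 (SE 0.27, interval -1.15 to 0.05, edgeR quasi-likelihood test, adjusted p = 0.193). Without microbead replicate 1, the log2 fold change was -0.90 (edgeR quasi-likelihood test, adjusted p = 0.0578), and with each of the other libraries left out it remained between -0.64 and -0.37. The values of *Hspa5* and *Atf4* thus stood on opposite sides of 0, and microbead replicate 1 was the highest microbead library for both.

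The 4 ATF4 target genes covered a wide range of levels and showed no common direction. *Sesn2* (ENSMUSG00000028893.8, chr4:132492032-132510501, minus strand) encodes sestrin 2, a leucine sensor that restrains the growth kinase complex mTORC1. *Sesn2* was at 24.5, 26.5 and 27.2 CPM in saline retina and 20.7, 19.4 and 22.3 CPM in microbead retina. The groups did not overlap, and the log2 fold change of *Sesn2* was -0.33 (SE 0.17, interval -0.71 to 0.06, edgeR quasi-likelihood test, adjusted p = 0.227). *Asns* (ENSMUSG00000029752.12, chr6:7675169-7693254, minus strand), which encodes asparagine synthetase, was at 32.8, 31.6 and 40.0 CPM in saline retina and 45.8, 35.2 and 36.2 CPM in microbead retina. The groups overlapped, with microbead replicate 1 as the highest library, and the log2 fold change of *Asns* was 0.17 (SE 0.19, interval -0.25 to 0.58, edgeR quasi-likelihood test, adjusted p = 0.577). Without microbead replicate 1 it was 0.03, without saline replicate 3 it was 0.28, and with an offset for GC content and length it was 0.02.

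*Trib3* and *Chac1* were the least abundant of the 10 genes. *Trib3* (ENSMUSG00000032715.9, chr2:152337422-152344032, minus strand) encodes a pseudokinase that restrains ATF4 and CHOP. *Trib3* was at 10.6, 6.03 and 4.42 CPM in saline retina and 6.54, 4.62 and 6.04 CPM in microbead retina. Saline replicate 1 was above all other libraries, by 2.39-fold over saline replicate 3, and the microbead libraries lay within the range of the saline libraries. The log2 fold change of *Trib3* was -0.29 (SE 0.35, interval -1.08 to 0.51, edgeR quasi-likelihood test, adjusted p = 0.621), and it was 0.13 without saline replicate 1. *Chac1* (ENSMUSG00000027313.3, chr2:119351229-119354381, plus strand) encodes an enzyme that breaks down glutathione and is among the genes most strongly induced by ATF4 in other settings. It was counted 82, 76 and 49 times in saline retina and 34, 19 and 27 times in microbead retina, or 2.18, 1.58 and 1.40 as compared to 1.75, 1.37 and 1.75 CPM. At this depth *Chac1* had the largest SE of the 10 genes, with a log2 fold change of -0.08 (SE 0.40, interval -0.97 to 0.81, edgeR quasi-likelihood test, adjusted p = 0.917). Without saline replicate 1 the log2 fold change was 0.13, and without microbead replicate 2 it was 0.05.

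**Figure D2:**
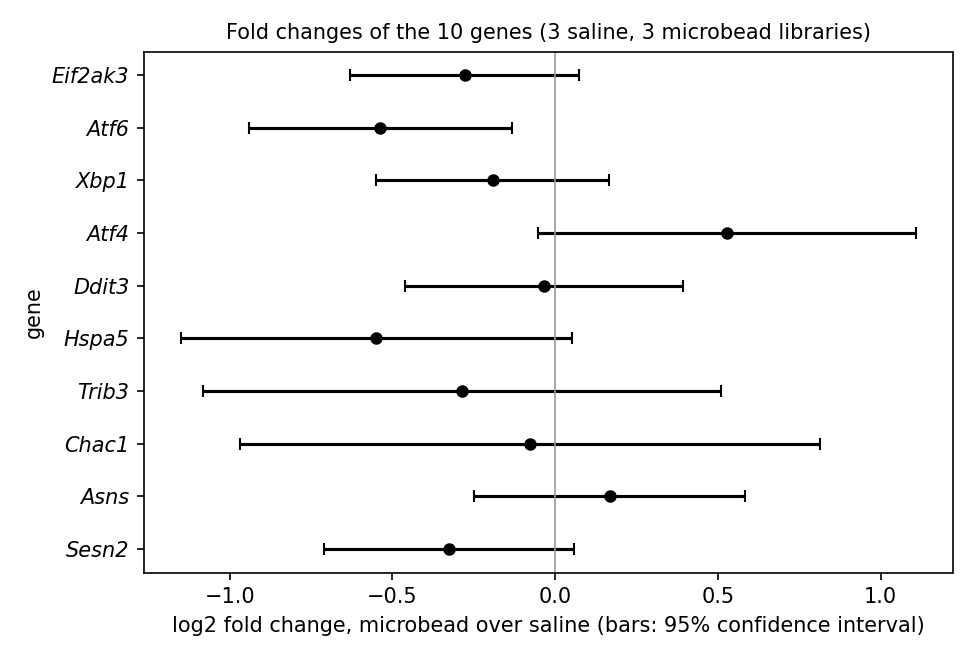
Log2 fold change (microbead over saline) of each of the 10 genes from edgeR's quasi-likelihood fit of 3 saline and 3 microbead libraries, with bars for the 95% confidence interval. The interval of *Atf6* (-0.94 to -0.13) is the only one of the 10 that does not include 0, before adjustment for the number of genes tested.

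Genes of the 2 pathways other than the 10 were grouped in 5 lists with 113 genes, of which 112 were tested. The exception was *Fgf21*, whose hormone product is made under ATF4 in the liver, with 3 counts in saline replicate 1 and 0 in the other libraries. Of the 112, 4 (3.57%) were higher and 15 (13.4%) lower in microbead retina at an adjusted p under 0.05 in edgeR's quasi-likelihood test. Of all genes tested, 6.46% were higher and 6.31% lower. Both directions together made 16.96% of the 112 genes, as compared to 12.8% of all genes tested. The median log2 fold change was -0.18 over the 112 genes and -0.03 over all genes tested. Genes named from these lists are those with the largest significant changes and the most abundant gene of each list, and *Creb3l2*, *Slc7a5*, *Slc38a2*, *Derl1* and *Sel1l* were added after their values were seen.

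In the list of signaling components of both pathways, 1 of 28 genes (3.57%) was higher and 4 (14.3%) were lower in microbead retina. Of all genes tested, 6.46% were higher and 6.31% lower. The median log2 fold change of the list was -0.09. *Bak1*, which encodes a pro-apoptotic protein of the BCL2 family, was at 15.8, 11.2 and 11.6 CPM in saline retina and 31.9, 22.02 and 29.6 CPM in microbead retina. It rose by 1.11 on the log2 scale (SE 0.23, edgeR quasi-likelihood test, adjusted p = 0.0190), in all 3 microbead libraries. *Eif2s3x*, which encodes the subunit of eIF2 that binds GTP, fell from 46.005, 50.9 and 70.04 CPM to 18.6, 26.4 and 21.1 CPM. The log2 fold change of *Eif2s3x* was -1.34 (SE 0.22, edgeR quasi-likelihood test, adjusted p = 0.0135), and 33.7% of its 100-base stretches also occur in transcripts of another locus, so that its counts are uncertain. Of the other falls, *Gcn1l1* (log2 fold change -0.92) encodes the partner through which the kinase GCN2 senses uncharged tRNA, *Mbtps2* (-0.76) the protease that makes the last cut in ATF6, and *Creb3l2* (-0.70) a transcription factor related to ATF6. Of the exon bases of *Bak1*, 25.5% lie opposite another gene, and 28.4% of those of *Mbtps2* are shared with *Yy2* on the same strand. Per kilobase, the most abundant gene of the list was *Impact*, whose product blocks the activation of GCN2. *Impact* was at 159, 249 and 250 CPM in saline retina and 147, 141 and 125 CPM in microbead retina. Its log2 fold change of -0.67 did not pass (edgeR quasi-likelihood test, adjusted p = 0.0628), although it did with DESeq2 (0.0300) and without saline replicate 1 (0.0198 from edgeR).

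These calls depended on single libraries. Without microbead replicate 3, edgeR's quasi-likelihood test gave an adjusted p of 0.0770 for *Eif2s3x*, 0.0923 for *Bak1*, 0.0773 for *Gcn1l1* and 0.129 for *Mbtps2*. *Eif2s3x* passed with any other library left out. *Bak1* did not pass without saline replicate 2 (0.0805 from edgeR) or microbead replicate 1 (0.0571), and *Gcn1l1* and *Mbtps2* passed only without saline replicate 1 (0.0427 and 0.0336 from edgeR). *Creb3l2* did not pass with any library left out (0.0520 to 0.142, from edgeR). Without microbead replicate 3, the count over all genes tested was itself 46 in place of 2261.

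The phosphatase subunit gene *Ppp1r15a*, whose product GADD34 ends the response by restoring eIF2, is a target of ATF4 and CHOP. *Ppp1r15a* was at 20.6, 15.5 and 53.9 CPM in saline retina and 22.7, 19.1 and 26.7 CPM in microbead retina. Saline replicate 3 was the highest of all libraries, and microbead replicates 1 and 3 were above the remaining saline libraries. The log2 fold change of *Ppp1r15a* was -0.39 (SE 0.41, edgeR quasi-likelihood test, adjusted p = 0.551), and it was 0.34 without saline replicate 3.

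Among 33 tested targets of ATF4 and CHOP other than the 10 genes, edgeR's quasi-likelihood test called 0 higher and 5 (15.2%) lower in microbead retina. Of all genes tested, 6.46% were higher and 6.31% lower. The median log2 fold change of the targets was -0.19. At an unadjusted p under 0.05, 13 of 33 (39.4%) passed, as compared to 31.4% of all genes tested. Limma-voom called 0 higher and 3 lower, as compared to 1173 and 1037 of all 17707 genes. DESeq2 called 2 higher (*Slc7a3* and *Shmt2*) and 7 lower, as compared to 1821 and 1800 of all 31169 genes. Without saline replicate 1, edgeR called 2 higher (*Nupr1* and *Shmt2*) and 6 lower. *Shmt2*, which encodes an enzyme that makes glycine, was at 48.3, 38.3 and 39.1 CPM in saline retina and 61.6, 53.4 and 79.8 CPM in microbead retina, without overlap, and did not pass with all libraries (log2 fold change 0.63, edgeR quasi-likelihood test, adjusted p = 0.0659). *Cebpb*, a transcription factor of stress and inflammation, fell from 7.22, 3.38 and 29.2 CPM in saline retina to 0.463, 0.217 and 1.10 CPM in microbead retina. It was counted 272, 163 and 1024 times in saline retina but only 9, 3 and 17 times in microbead retina, so that the size of its fall is uncertain. *Atf3*, a transcription factor that neurons induce after axon injury, was at 27.2, 9.62 and 60.4 CPM in saline retina and 5.76, 11.8 and 4.94 CPM in microbead retina. For both genes saline replicate 3 was far above the rest, and for *Atf3* the groups overlapped, since microbead replicate 2 was above saline replicate 2. In edgeR's quasi-likelihood test, the log2 fold changes were -4.46 for *Cebpb* (SE 0.87, adjusted p = 0.0175) and -2.11 for *Atf3* (SE 0.59, adjusted p = 0.0465). With limma-voom the adjusted p was 0.102 for *Cebpb* and 0.136 for *Atf3*. Without saline replicate 3, that of *Cebpb* was 0.0169 and that of *Atf3* 0.104 from edgeR, with log2 fold changes of -3.14 for *Cebpb* and -1.30 for *Atf3*. *Cebpb* did not pass without microbead replicate 1, 2 or 3 (0.0718, 0.0616 and 0.0773 from edgeR), nor did *Atf3* (0.146, 0.0719 and 0.1785). Of the exon bases of *Cebpb*, 20.7% lie opposite another gene.

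*Ddit4*, whose product restrains mTORC1, was the most abundant gene of that list per kilobase. It fell from 126, 107 and 98.7 CPM to 53.9, 53.6 and 69.3 CPM in microbead retina (log2 fold change -0.91, SE 0.18, edgeR quasi-likelihood test, adjusted p = 0.0186). The other falls were *Slc7a5* (-0.76) and *Slc38a2* (-0.66), which encode amino acid transporters of the cell membrane. *Ddit4* passed without saline replicate 1 or 3, and did not without saline replicate 2 (0.0666 from edgeR) or microbead replicate 1, 2 or 3 (0.0540, 0.0643 and 0.0700). *Slc38a2* passed only without saline replicate 1 (0.0282), and *Slc7a5* did not pass with any library left out (0.0521 to 0.120, from edgeR).

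*Nupr1*, *Gdf15* and *Slc7a11*, other well-known targets of ATF4 added here after their values were seen, did not pass, with log2 fold changes of 0.26, -0.84 and -1.13. *Nupr1* was at 36.9, 7.55 and 8.25 CPM in saline retina and 19.6, 17.98 and 25.3 CPM in microbead retina, so that saline replicate 1 alone was above the microbead libraries. Without that library its log2 fold change was 1.41 (edgeR quasi-likelihood test, adjusted p = 0.0116), and it was -0.11 without saline replicate 2 and -0.08 without saline replicate 3. *Slc7a11* also passed without saline replicate 1, with a log2 fold change of -1.46 (edgeR quasi-likelihood test, adjusted p = 0.0403), whereas it was -0.72 without saline replicate 3 (0.342). *Gdf15* was counted no more than 52 times in any library, and its log2 fold change was -0.38 without saline replicate 3, -0.33 without microbead replicate 2 and -1.91 without microbead replicate 3.

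Aminoacyl-tRNA synthetases charge tRNA with amino acids and rise with ATF4 in many cells. With edgeR's quasi-likelihood test, 0 of 12 were higher and 1 (8.33%) lower, as compared to 6.46% and 6.31% of all genes tested. The median log2 fold change of the synthetases was -0.25. At an unadjusted p under 0.05, 5 of the 12 (41.7%) passed, as compared to 31.4% of all genes tested. DESeq2 called 2 of the 12 and limma-voom 1 in either direction. *Yars* fell from 86.9, 86.7 and 91.9 CPM to 55.5, 51.8 and 61.8 CPM (log2 fold change -0.65, SE 0.16, edgeR quasi-likelihood test, adjusted p = 0.0302). It passed without saline replicate 1 (0.0428) but not with any other library left out (0.0607 to 0.112, from edgeR). *Nars*, the most abundant per kilobase, was at 155, 175 and 215 CPM in saline retina and 176, 140 and 146 CPM in microbead retina, and its log2 fold change was -0.24 (edgeR quasi-likelihood test, adjusted p = 0.414), or -0.10 without saline replicate 3 and -0.16 without microbead replicate 2.

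ER chaperones and folding enzymes other than *Hspa5* did not move together. Of 19 genes, 2 (10.5%) were higher and 0 lower in microbead retina with edgeR's quasi-likelihood test, as compared to 6.46% and 6.31% of all genes tested. The median log2 fold change of the 19 was -0.16. At an unadjusted p under 0.05, 8 of the 19 (42.1%) passed, as compared to 31.4% of all genes tested. Limma-voom called 2 higher and 0 lower, and DESeq2 called 2 higher and 2 lower (*Canx* and *Uggt1*). *Canx* was also called lower by edgeR with no filter, with at least 10 counts in every library, or without saline replicate 1. Both genes that rose encode prolyl isomerases of the ER. *Fkbp2* rose from 31.1, 30.4 and 32.8 CPM to 126, 68.3 and 79.9 CPM (log2 fold change 1.54, SE 0.23, edgeR quasi-likelihood test, adjusted p = 0.0110). *Ppib* rose from 43.2, 36.7 and 34.4 CPM to 57.9, 62.7 and 61.6 CPM (log2 fold change 0.67, SE 0.17, edgeR quasi-likelihood test, adjusted p = 0.0320), and 25.0% of its exon bases lie opposite another gene. *Fkbp2* did not pass without microbead replicate 3 (0.0599 from edgeR) and passed with any other library left out, whereas *Ppib* passed only without saline replicate 1 (0.0277 from edgeR). The lectin chaperone gene *Calr*, the most abundant per kilobase, was at 422, 408 and 550 CPM in saline retina and 698, 521 and 483 CPM in microbead retina. Its groups overlapped, and its log2 fold change was 0.30 (edgeR quasi-likelihood test, adjusted p = 0.350), or 0.12 without microbead replicate 1.

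Single libraries stood out in several lists. Saline replicate 3 was the highest saline library for 13 of the 19 chaperone genes, 9 of the 12 synthetases and 14 of the 20 genes of ER-associated degradation, as compared to 39.8% of all genes tested. Microbead replicate 1 was the highest microbead library for 13 of the 19 chaperone genes, 6 of the 12 synthetases and 9 of the 20 degradation genes, as compared to 37.6% of all genes tested. Microbead replicate 3 was the highest for the other 6 synthetases, as compared to 29.5% of all genes tested. Among the 28 signaling genes, saline replicate 3 was highest for 13 and microbead replicate 1 for 13. Among the 33 targets of ATF4 and CHOP, saline replicate 3 was highest for 13 and microbead replicate 1 for 6. Microbead replicate 3 was highest for 20 of the 33 targets, as compared to 29.5% of all genes tested. Saline replicate 3 and microbead replicate 1 also held the highest *Hspa5* of their groups. For the 10 genes, the highest saline library was replicate 1 for 6 and replicate 3 for 4, and the highest microbead library was replicate 1 for 6. Saline replicate 1 was also highest for 14 of the 28 signaling genes and 15 of the 33 targets, as compared to 41.8% of all genes tested. This pattern was noticed after the values were seen.

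In ER-associated degradation, misfolded proteins are drawn out of the ER, tagged with ubiquitin and destroyed. Of its 20 genes, 1 (5%) was higher and 5 (25%) lower in microbead retina with edgeR's quasi-likelihood test. Of all genes tested, 6.46% were higher and 6.31% lower. The median log2 fold change of the 20 was -0.14. *Vcp*, the ATPase that pulls proteins out of the ER membrane, fell from 284, 294 and 370 CPM to 162, 131 and 131 CPM (log2 fold change -1.17, SE 0.18, edgeR quasi-likelihood test, adjusted p = 0.0119). Its cofactor gene *Nploc4* fell from 76.0, 80.7 and 84.3 CPM to 44.0, 42.8 and 51.8 CPM (log2 fold change -0.80, SE 0.16, edgeR quasi-likelihood test, adjusted p = 0.0192). The ubiquitin ligase partner gene *Sel1l* (-0.67) and the channel gene *Derl1* (-0.77) were also called lower. *Sel1l* passed only without saline replicate 1 (0.0326 from edgeR), and *Derl1* only without saline replicate 1 or microbead replicate 1 (0.0403 and 0.0445). *Edem2*, whose product trims mannose from misfolded glycoproteins and so marks them for degradation, rose from 42.8, 28.7 and 19.5 CPM to 76.2, 66.9 and 94.98 CPM (log2 fold change 1.39, SE 0.28, edgeR quasi-likelihood test, adjusted p = 0.0188). Of the 100-base stretches of *Vcp*, 34.2% also occur in transcripts of another locus, so that its counts are uncertain. *Os9*, a lectin of the same machinery and the most abundant gene of the list per kilobase, was at 161, 148 and 203 CPM in saline retina and 175, 180 and 232 CPM in microbead retina, and its log2 fold change was 0.20 (edgeR quasi-likelihood test, adjusted p = 0.513). Leaving out saline replicate 2, saline replicate 3 or microbead replicate 3 made it 0.10, 0.34 or 0.05. Across the alternative settings with all libraries, the log2 fold change of *Os9* ran from 0.02 to 0.27. Without microbead replicate 3, the adjusted p from edgeR was 0.0731 for *Vcp*, 0.0733 for *Nploc4* and 0.0934 for *Edem2*. *Vcp* passed with any other library left out. *Edem2* did not pass without saline replicate 2 (0.0670) or microbead replicate 1 (0.0547), nor did *Nploc4* (0.0804 and 0.0508), which also missed without microbead replicate 2 (0.0660).

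**Figure D3:**
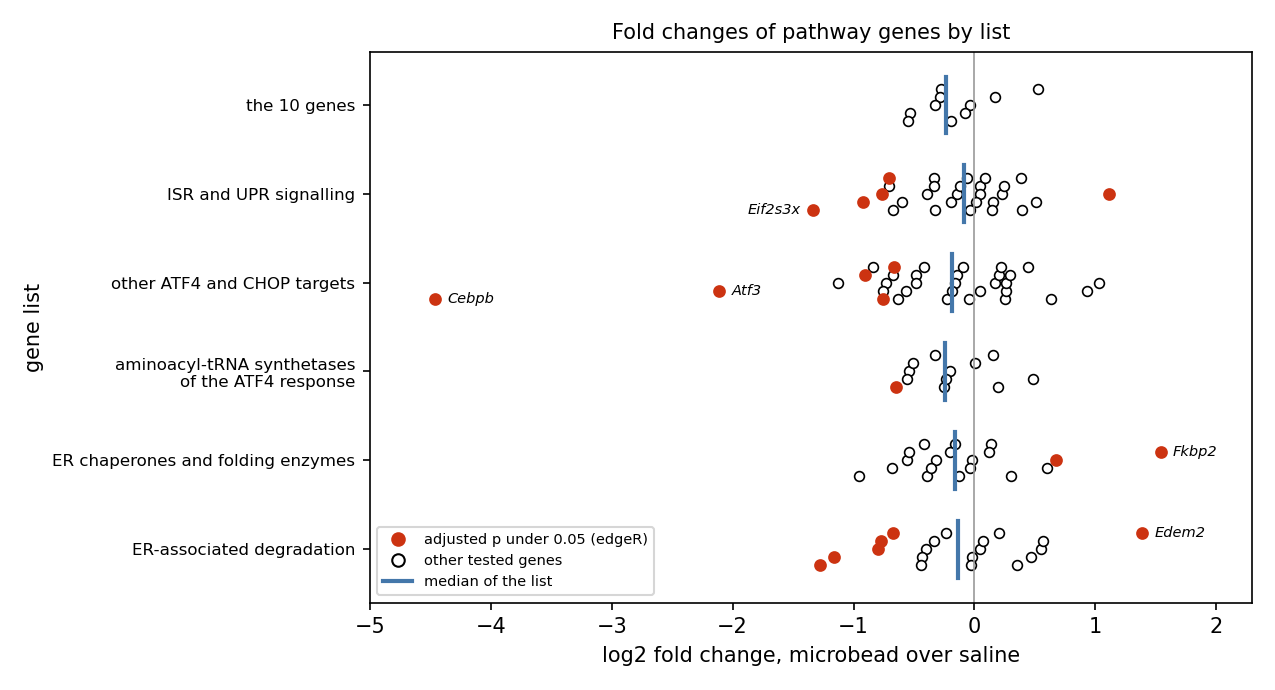
Log2 fold change (microbead over saline) of every tested gene in the 5 pathway lists and of the 10 genes, with filled red points for an adjusted p under 0.05 in edgeR's quasi-likelihood test, open points for the other genes and a blue line at each list's median (vertical scatter has no meaning). Red points number 0 among the 10 genes and 5, 5, 1, 2 and 6 in the lists from top to bottom. *Cebpb* at -4.46 (-3.14 without saline replicate 3) lies farthest from 0, with only 9, 3 and 17 counts in microbead retina.

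The promoters of these genes were searched for the sequence elements through which the pathways are known to act, to show which genes carry them. RefSeq promoters of 300 bases (250 before to 50 after the RefSeq gene start, GRCm38.p6) were matched by symbol for 9 of the 10 genes, all except *Atf6*, and both strands were searched. The ATF4 element was taken as TGATGNAA, where N is any base. The ER stress element bound by ATF6 was taken as CCAAT, 9 bases of any kind and CCACG, its second form as ATTGG, 1 base of any kind and CCACG, and the element of XBP1 and ATF6 as TGACGTGG, which on the other strand starts with the CCACG of the ER stress elements. The ATF4 element was in 3.97% of all 32851 promoters, the ER stress element in 0.119%, its second form in 0.0365% and the XBP1 element in 0.676%.

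The ATF4 element was present in 3 of the 4 ATF4 target genes among the 10, and the ER stress element in *Hspa5*. These stretches are shown because they carry the best-known control sequences of the pathways. Capitals mark the element, and *Chac1* and *Trib3* hold the ATF4 element on the opposite strand, as its reverse complement. A match describes the sequence only and shows no binding. The RefSeq starts differ from the GENCODE starts that bound the gene coordinates given above, so that the place of the element depends on the annotation.
*Asns*, chr6:7693220-7693237, minus strand: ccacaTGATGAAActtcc
*Chac1*, chr2:119351044-119351061, plus strand: tgccgTTGCATCActcct
*Trib3*, chr2:152344034-152344051, minus strand: caggtTTACATCAgccgg
*Hspa5*, chr2:34772020-34772048, plus strand: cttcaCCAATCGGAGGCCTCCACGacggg
Counted from the RefSeq start, the element began 23 bases before it in *Asns* (start at 7693209), 193 before it in *Chac1* (119351242), 65 before it in *Hspa5* (34772090) and 14 after it in *Trib3* (152344060). Counted from the GENCODE start, it began 22 bases after it in *Asns* and 55 after it in *Hspa5*, within a region annotated as untranslated in a transcript of each, and 180 before it in *Chac1* and 14 before it in *Trib3*.
The genes that share the ATF4 element had log2 fold changes of 0.17 (*Asns*), -0.08 (*Chac1*) and -0.29 (*Trib3*), and none passed the test. No match was found in these windows for *Atf4*, *Ddit3*, *Eif2ak3*, *Sesn2* and *Xbp1*.

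Genes of the lists that carry the ER stress element did not share a direction either. The ER stress element was in 6 of the 16 chaperone genes with a promoter, and the 3 most abundant of them per kilobase are shown, with 1 of the 2 matches of *Hsp90b1* and with the element of *Calr* on the opposite strand.
*Calr*, chr8:84847070-84847098, minus strand: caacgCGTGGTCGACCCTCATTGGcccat
*Canx*, chr11:50325795-50325823, minus strand: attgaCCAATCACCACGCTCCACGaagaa
*Hsp90b1*, chr10:86705633-86705661, minus strand: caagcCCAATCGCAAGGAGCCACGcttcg
*Hsp90b1* was at 320, 289 and 381 CPM in saline retina and 724, 409 and 371 CPM in microbead retina, with overlapping groups and a log2 fold change of 0.60 (edgeR quasi-likelihood test, adjusted p = 0.152), which was 0.24 without microbead replicate 1. *Canx* was at 449, 457 and 620 CPM in saline retina and 380, 284 and 284 CPM in microbead retina, without overlap, and its log2 fold change was -0.69 (edgeR quasi-likelihood test, adjusted p = 0.0565). The remaining chaperone genes with the element, *Pdia6*, *Creld2* and *Ero1lb*, had log2 fold changes of -0.32, -0.16 and -0.20, and those of *Dnajc3*, *Syvn1* and *Derl3*, which carry it in the signaling and degradation lists, were -0.20, 0.47 and 0.55. With 1 library left out, the values ran from -0.56 to -0.19 for *Pdia6* (without microbead replicates 1 and 2), -0.31 to -0.01 for *Creld2* (the same replicates), 0.26 (without microbead replicate 3) to 0.57 for *Syvn1* and 0.23 (without microbead replicate 1) to 0.73 for *Derl3*, and none changed sign. Of these 9 genes, 4 were above 0 and 5 below, edgeR called 0, with 3 at an unadjusted p under 0.05, and *Canx* passed with DESeq2 (0.0205). The XBP1 element was in 3 genes of the lists, *Vcp* (log2 fold change -1.17, called), *Ube2j1* (-0.44) and *Txndc5* (-0.04). The second form of the ER stress element was in 2, *Dnajb11* (-0.36) and *Herpud1* (-0.02). All 5 values were below 0, but those of *Txndc5* and *Herpud1* only slightly, and 9221 of all 17707 genes tested were also below 0. The ATF4 element was in 8 of 27 other ATF4 and CHOP targets and in 5 of 8 synthetases with a promoter. Of 16 tested genes of the 5 lists with the ATF4 element, 5 were above 0 and 11 below, and 3 were called, all lower (*Atf3*, *Eif2s3x* and *Yars*). Among all 330 tested genes with the ATF4 element, 38 (11.5%) passed edgeR's quasi-likelihood test, 20 higher and 18 lower, as compared to 12.2% of the 11960 tested genes with a promoter in the table, 761 higher and 697 lower. Of 120 tested genes with the XBP1 element, 14 (11.7%) passed, 3 higher and 11 lower. Of 20 with the ER stress element, 3 passed, all higher (*Alg12*, *Tdrd9* and *Zfp57*, named after their values were seen), and 7 had an unadjusted p under 0.05. Of 8 with its second form, 0 passed with edgeR, and 3 had an unadjusted p under 0.05. Among all 11960 tested genes with a promoter, 3711 had an unadjusted p under 0.05.

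Across the 6 libraries, the genes whose log2 CPM followed *Atf4* most closely, among 10350 tested genes with a mean of at least 10 CPM, were *Exosc2* (Pearson r 0.992), *Rrp36* (0.989) and *Tmem208* (0.988). For *Hspa5* they were *Tvp23b* (0.999), *Ddx1* (0.997) and *Cops6* (0.997). With 6 libraries in 2 groups and this many genes compared, these values are a description only, and none of the 6 genes differed significantly between the groups (adjusted p from 0.171 to 0.485, edgeR's quasi-likelihood test).

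Marker genes showed that the libraries held retina, and that some stood apart within their group. The 10 rod markers summed to 71663, 69123 and 91848 CPM in saline retina and 70331, 59426 and 74629 CPM in microbead retina, and 1 of them (*Nrl*) was significantly lower in microbead retina. The 6 cone markers, led by *Opn1sw*, summed to between 1024 and 1410 CPM in the 6 libraries, with 1 gene (*Arr3*) higher in microbead retina. Bipolar markers (6 genes, led by *Prkca*) summed to between 1254 and 1591 CPM and amacrine markers (6 genes, led by *Pax6*) to between 871 and 1461 CPM, and the smallest adjusted p of these lists was 0.0733 (*Pcp2*) and 0.0640 (*Pax6*) in edgeR's quasi-likelihood test. The 9 RGC markers, led by *Nefl*, summed to 369, 1062 and 1362 CPM in saline retina and 1233, 901 and 1135 CPM in microbead retina, so that saline replicate 1 was the lowest of all libraries. Their smallest adjusted p was 0.103 (*Sncg*) in edgeR's quasi-likelihood test.

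Saline replicate 1 was also high for the sums of reactive glia markers and of microglia and macrophage markers. Its sum of Müller glia markers (4077 CPM) was instead the lowest of the saline libraries, and *Pax2* of the astrocyte list was also lowest there (0.398, 0.581 and 1.28 CPM). The list of astrocyte and reactive glia markers (5 genes, led by *Serpina3n*) summed to 481, 57.0 and 61.8 CPM in saline retina and 116, 149 and 95.4 CPM in microbead retina. Microglia and macrophage markers (8 genes, led by *C1qa*) summed to 179, 52.6 and 78.5 CPM in saline retina and 101, 104 and 47.7 CPM in microbead retina. The smallest adjusted p of these lists was 0.273 (*Serpina3n*) and 0.0542 (*Csf1r*) in edgeR's quasi-likelihood test. In saline replicate 1, 6 of the 10 genes were at their highest among the saline libraries (*Trib3*, *Chac1*, *Atf4*, *Ddit3*, *Xbp1* and *Eif2ak3*). *Atf6* and *Sesn2* were at their lowest there. The part of these markers in those values was not tested. With that library left out, the log2 values were 0.13 for *Trib3*, 0.13 for *Chac1* and -0.62 for *Atf6*.

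Saline replicate 3 held lens transcripts. The 5 lens genes found in the table, led by *Cryaa*, summed to 27.9, 0.518 and 363 CPM in saline retina and 0.309, 0.217 and 0.195 CPM in microbead retina, where *Crybb2* was at 0 in all libraries, and none of the 5 passed the filter for testing. Pigment epithelium markers (6 genes, led by *Rpe65*) summed to 2.58, 9.19 and 45.4 CPM in saline retina and 23.1, 16.6 and 16.2 CPM in microbead retina, with a smallest adjusted p of 0.282 (*Pmel*) in edgeR's quasi-likelihood test. *Cebpb*, *Atf3*, *Ppp1r15a* and *Hspa5* had their highest values in the same library. The part of these markers in those values was not tested, and the fold change of *Hspa5* without saline replicate 3 was -0.37.

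Müller glia, endothelial and pericyte markers included genes that were lower in microbead retina. Müller glia markers (8 genes, led by *Glul*) summed to 4077, 5458 and 8167 CPM in saline retina and 4590, 4541 and 3948 CPM in microbead retina, with 3 genes (*Dkk3*, *Sox9* and *Vim*) significantly lower. Endothelial markers (7 genes, led by *Kdr*) summed to 454, 473 and 655 CPM in saline retina and 300.5, 429 and 280.1 CPM in microbead retina, with 3 genes (*Cldn5*, *Esam* and *Flt1*) lower. Pericyte and smooth muscle markers (5 genes, led by *Rgs5*) summed to 123, 193 and 196 CPM in saline retina and 155, 160 and 99.3 CPM in microbead retina, with 1 gene (*Pdgfrb*) lower. Without saline replicate 3, the log2 fold change of *Sox9* was -0.88 in place of -1.46 (adjusted p = 0.0573 from edgeR), and *Vim* (0.0889), *Cldn5* (0.0657), *Flt1* (0.0650) and *Pdgfrb* (0.0561) did not pass, whereas *Dkk3* (0.0404) and *Esam* (0.0462) did. Without microbead replicate 3, none of these 7 genes passed with edgeR (0.0971 to 0.163), nor did *Nrl* (0.0883) or *Arr3* (0.0700). Whether the cell types that carry these markers contribute to the lower values of *Atf6*, *Eif2ak3* or *Sesn2* was not tested.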

How the data were processed

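The authors sequenced polyadenylated RNA of retina, and the 3 saline and 3 microbead samples used here were grouped by their labels. Reads were aligned by the authors with STAR 2.5.3a to GRCm38.p5 and counted on genes with featureCounts 1.15.2, per the submitters' processing notes, and the deposited values are raw counts per gene and sample, not normalized. The library kit kept strand, but the strand setting of the counting and the treatment of reads that map to several places are not given in the sources used here. The deposited table also holds the authors' DESeq2 comparison (mean level, fold change, p-values and calls), which was not used.

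In R 4.3.3, edgeR 4.0.16 removed low genes (filterByExpr with a minimum count of 10 and a minimum total of 15), applied TMM scaling and ran the two-sided quasi-likelihood test, with Benjamini-Hochberg adjustment over all genes tested and a threshold of 0.05. Intervals are at the 95% level. At the smallest and the largest library total, 3 counts equal 0.217 and 0.0622 CPM, and these limits cover counting error only. No library was a copy of another of its group, since the chi-square per degree of freedom within a group was 21.96 or more. Exon lengths, overlaps and shared stretches came from GENCODE vM21, which matched 99.5% of genes by identifier. The steps were tested on simulated data.

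Other scalings were RLE, upper quartile and a library size that drops the 100 most abundant genes. The filter was left out or set to 10 counts in all 6 libraries, DESeq2 1.42.0 and limma-voom (limma 3.58.1) replaced edgeR, and further fits used a replicate block, an offset for GC content and length (splines with 5 degrees of freedom) with and without the block, an adjusted p under 0.01, or 5 of the 6 libraries, with each left out once. DESeq2 was run on all 31169 genes, without the filter, so that its counts differ from the main test in both tool and filter. Genes named are the 10, up to 3 largest significant rises and falls and the most abundant gene per kilobase of each pathway list, *Ern1*, *Ppp1r15a* and *Atf3*, the 3 genes most correlated with *Atf4* and with *Hspa5*, the most abundant gene of each marker list, and those said to be added after their values were seen, as were the marker genes that passed, those with the smallest adjusted p of a list in which none passed, and the genes with promoter elements. Of the genes so chosen, 2 are not reported here. The alternatives for genes named later were also added after their values were seen. The 10 genes and the lists were chosen with earlier results of these data known.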

Additional observations from a re-analysis of the deposited data

How the results depend on the processing

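For the 10 genes, edgeR, DESeq2 and limma-voom called 0 under each setting, with 1 to 3 at an unadjusted p under 0.05. With all 6 libraries, 98 of 100 values of their fold changes under the alternatives kept their direction, and the 2 that did not were those of *Ddit3*, at 0.00864 with upper-quartile scaling and 0.0285 without the 100 most abundant genes. With each library left out in turn, 55 of 60 kept it, and the log2 fold changes ran from -0.19 to 0.12 for *Ddit3*, -0.53 to 0.13 for *Trib3* and -0.20 to 0.13 for *Chac1*. They ran from -0.0535 to 0.47 for *Ern1* and -0.71 to 0.34 for *Ppp1r15a*, and both took the other sign without saline replicate 3. *Nupr1* ran from -0.11 to 1.41, below 0 without saline replicate 2 or 3, and from 0.20 to 0.67 under the alternatives with all 6 libraries. The cause was not tested.

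The count over all genes (2261) was 3720 with no filter, of which 40.6% were higher as compared to 50.6% in the main test. It was 3621 with DESeq2, which was also run without the filter, 87 at an adjusted p under 0.01, and 46 to 2621 with each library left out. Without the 100 most abundant genes in the library size, 57.8% of calls were higher. The signaling list (5 calls) had 8 with no filter, 8 with DESeq2, 0 at 0.01 and 0 to 5 with each library left out. The other ATF4 and CHOP targets (5) had 3 without the 100 most abundant genes, 9 with DESeq2, 3 with limma-voom, 0 at 0.01 and 0 to 8 with each library left out. The synthetases (1) had 2 with no filter, 2 with DESeq2, 3 with the GC and length offset, 0 at 0.01 and 0 to 1 with each library left out. The chaperones (2) had 4 with DESeq2, 0 at 0.01 and 0 to 3 with each library left out, and the degradation genes (6) had 0 at 0.01 and 0 to 6 with each library left out. The stricter threshold lowers counts by construction, and of the other shifts the cause was not tested. *Cebpb* and *Gdf15* have no value with at least 10 counts in every library.

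With the replicate number as a block, all genes had 905 calls, the signaling list 2, the targets 1, the synthetases 0, the chaperones 1 and the degradation genes 4. With the GC and length offset and the replicate block, the counts were 1225, 3, 3, 0, 1 and 5. Deviations from the group means correlated at r = -0.04, 0.14 and 0.01 for samples with the same number (1, 2 and 3). Samples with unlike numbers gave r from -0.20 to 0.14, so that no pairing by number was seen. With 3 libraries in each group, these values cannot decide whether the numbers pair the samples.

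The shallowest library held 13574949 counts, in which *Chac1* was counted 19 times, and depth limits what can be said of *Chac1* most among the 10 genes.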
